A study of Mus musculus with 28 samples.

Results

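The natriuretic peptide system was followed through 8 genes in ventricular muscle RNA of 28 mice: the ligand genes Nppa, Nppb and Nppc, the processing enzymes Corin and Furin, and the receptors Npr1, Npr2 and Npr3. The genes were taken by symbol from a table of read counts, in which they make up 8 of 45513 gene rows. All mice were male C57BL/6 that had a 2-stage 5/6 nephrectomy, a model of chronic kidney disease (CKD), or a sham operation at 6 weeks of age. Every mouse ate a diet with added hydroxyproline, a precursor of oxalate, and calcium, and received 1 gavage on day 7. The gavage was either Oxalobacter formigenes (Oxf), a gut bacterium that lives on oxalate, or its culture medium alone (vehicle). The title of the study names the question, which is how colonization bears on the course of CKD and on cardiac remodelling. The libraries used here were 10 sham-vehicle, 6 CKD-vehicle, 5 sham-Oxf and 7 CKD-Oxf mice, of 10 designed per group; the others are not analysed here.

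Atrial natriuretic peptide (ANP, from Nppa) and B-type natriuretic peptide (BNP, from Nppb) are hormones that cardiac muscle releases when it is stretched. They lower blood volume and pressure by acting on kidney and vessels. Nppa is transcribed mainly in the atria of the adult heart, and both genes rise in the ventricle under load, which has made them standard markers of cardiac stress. Corin cuts the ANP precursor and furin the BNP precursor. ANP and BNP signal through the guanylyl cyclase receptor NPR-A (Npr1), the C-type peptide (CNP, from Nppc) through NPR-B (Npr2), and NPR-C (Npr3) removes all of them from the circulation.

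Levels are given in CPM (counts divided by a library's total, in parts per 1 M) scaled by TMM factors, which correct for a few very abundant RNAs, and differences as edgeR log2 fold changes ± SE. A gene is said to have passed the test at an adjusted p under 0.05 over the 24273 genes tested. The labels name each library by a mouse number and give no further account of separate preparation, so p-values measure the spread between these mice. Depth was 19798965 to 65378162 counts per library. Sham-Oxf replicate 1 stood apart, with 15879 genes holding a count against 27128 to 33995 in the other 27 libraries, and results that rest on it are given with and without it. The ventricular genes were high in all 28 libraries, with Myh6, the main myosin heavy chain of the mouse heart, at 11284 to 29665 CPM and the ventricular light chain gene Myl2 at 225 to 1994 CPM. Atrial markers were present too and varied widely: Myl7, the atrial light chain gene, ran from 5.50 to 623 CPM and Bmp10 from 0.0281 to 835 CPM. The share of 7SL RNA, a small cytoplasmic RNA, ranged from 1.83% to 20.98% of all counts, summed over the rows Rn7s1 and Rn7s2. These rows had nearly equal medians, 47016.4 and 47016.7 CPM, and whether the same reads were counted in both is not known. In bulk tissue RNA, fewer cells of a type and less RNA per cell cannot be told apart.

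Nppb and Nppa are neighbours on mouse chromosome 4 (GRCm38), both on the plus strand: Nppb at 4:147985788-147987205 and Nppa at 4:148000722-148002079, 13516 bases further on. These positions are from GENCODE, which starts Nppb upstream of its RefSeq start at 147985900. The stretches before the RefSeq starts are shown because both ligand genes are compared below, and because they hold words bound by cardiac transcription factors. Capitals mark TGATAA and AGATAA, words of GATA factors such as GATA4, GGAATG, the reverse complement of the M-CAT word CATTCC of TEAD factors, and TATAAA, the word of the TATA box. TATAAA begins 9 bases upstream of the RefSeq start in Nppa, and 31 bases upstream in Nppb, outside the part shown. Whether either acts as a TATA box was not tested. The sequences are from RefSeq on GRCm38.p6, sense strand. The first is the 250 bases before the RefSeq start of Nppa (4:148000472-148000721) and the second a 30-base part of the window before the RefSeq start of Nppb (4:147985792-147985821), with its GATA words 95 and 84 bases upstream of that start; this part lies inside Nppb as GENCODE gives it.
Nppa: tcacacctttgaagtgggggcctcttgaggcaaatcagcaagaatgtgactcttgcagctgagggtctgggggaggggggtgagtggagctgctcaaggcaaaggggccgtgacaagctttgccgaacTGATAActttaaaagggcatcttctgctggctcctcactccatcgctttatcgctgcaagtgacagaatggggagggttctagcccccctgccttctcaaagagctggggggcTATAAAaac
Nppb: gcaGGAATGcagcTGATAAatcagAGATAA

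The Nppb window held 2 GATA words, which 2.72% of 32851 RefSeq windows of the same length do, and the Nppa window held 1, 122 bases upstream. At least 1 GATA word was in 16.6% of these windows, CATTCC on either strand in 12.6%, and TATAAA in 12.4%. Among the 9 windows of the 8 genes, GATA words were found in those of Nppa and Nppb only, searching both strands, the M-CAT word in that of Nppb only, and TATAAA in those of Nppa, Nppb, Nppc and Furin. The E-box CACGTG, a word of CLOCK and its partner, is in 6.02% of all windows and in none of these 9. Such matches are letters in a window and were not tested as binding sites.

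Nppb, the BNP gene, was lower in colonized mice. Sham-vehicle hearts ran from 6.56 to 55.2 CPM with a median of 22.7, and CKD-vehicle hearts from 23.5 to 81.9 CPM with a median of 47.6. The 5 sham-Oxf hearts were at 17.2, 6.28, 6.75, 7.43 and 6.64 CPM, and the 7 CKD-Oxf hearts ran from 5.40 to 18.6 CPM with a median of 14.8. Every CKD-Oxf heart was below every CKD-vehicle heart; such a separation, in the lower direction, was seen for 0.260% of the genes tested. Sham-vehicle and sham-Oxf hearts overlapped, although all 5 sham-Oxf values were under the sham-vehicle median. Averaged over both surgeries, Nppb fell by 1.67 ± 0.29 on the log2 scale with Oxf, a 3.19-fold lower level (95% interval 2.12 to 4.81; edgeR adjusted p = 0.00539). It was the only 1 of the 7 genes tested to pass in this contrast, in which 2.81% of all genes passed.

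**Figure D1:**
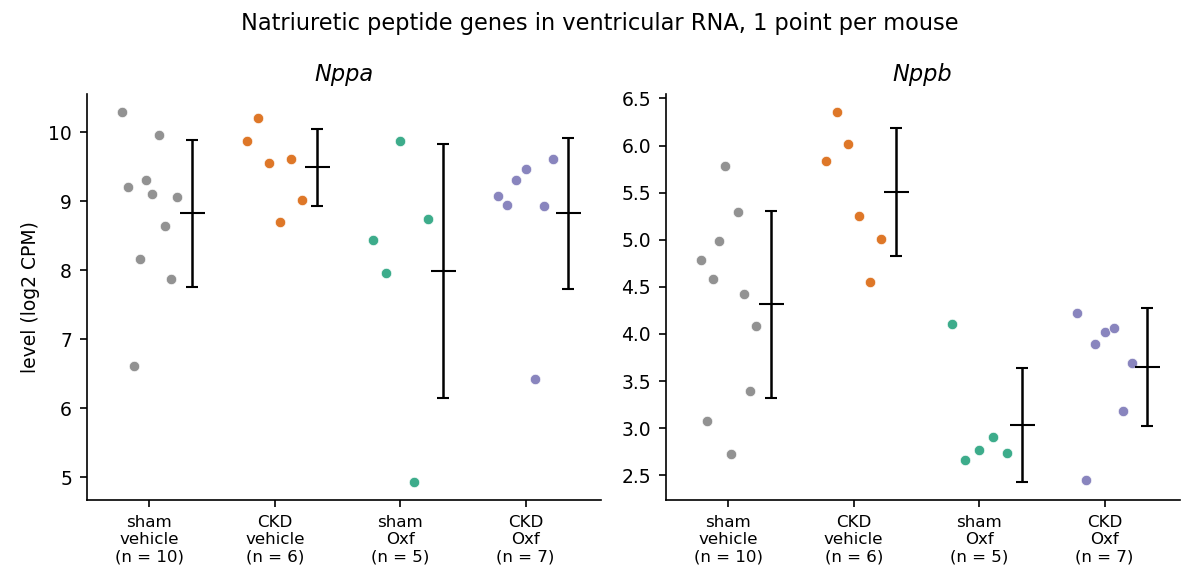
Levels of Nppa and Nppb in log2 CPM (vertical axis) in each mouse of the 4 groups, with the group mean ± SD of log2 CPM in black. Nppb is lower in all 7 CKD-Oxf mice than in the 6 CKD-vehicle mice, whereas the Nppa groups overlap and single mice lie far below their group.

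Within each surgery the Nppb difference had the same direction and did not pass over all genes. In CKD mice Oxf went with a log2 fold change of -1.89 ± 0.40 (p = 4.88e-05, edgeR adjusted p = 0.0966), where 0.0330% of genes passed. In sham mice it was -1.45 ± 0.42 (p = 0.00153, edgeR adjusted p = 0.186), where 0% passed. Without sham-Oxf replicate 1, the highest of its group, the sham difference was -1.83 with an edgeR adjusted p of 0.283. The interaction of surgery and gavage, which tests whether the 2 differences are unequal, was -0.44 ± 0.55 (p = 0.434), and 0% of genes passed it. That p does not show the 2 to be equal, since the interval ran from -1.56 to 0.69.

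CKD-vehicle hearts had more Nppb than sham-vehicle hearts by 1.04 ± 0.35 on the log2 scale, or 2.05-fold (95% interval 1.24 to 3.39). The unadjusted p was 0.00658 and the edgeR adjusted p 0.955, in a comparison where 0.00824% of genes passed. All 6 CKD-vehicle hearts lay above the sham-vehicle median, and 3 lay above every sham-vehicle heart. In colonized mice the CKD-Oxf to sham-Oxf difference was 0.60 ± 0.42 (p = 0.166), and 0% of genes passed. Averaged over gavage, CKD against sham gave 0.82 ± 0.28 (p = 0.00631, edgeR adjusted p = 0.313), again with 0% of genes past the threshold.

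The groups also differed in the state of the circadian clock in the tissue. A clock score was taken as the mean log2 level of 10 genes of the evening phase, such as Dbp and Per2, minus that of 4 morning genes, such as Arntl, relative to sham-vehicle. CKD-vehicle hearts scored -2.57 to -0.34 and CKD-Oxf hearts -0.16 to 1.88. Among sham mice the range was -1.66 to 1.95 with vehicle and 0.77 to 2.28 with Oxf. The CKD-vehicle and CKD-Oxf ranges did not overlap, so in CKD mice clock state and gavage cannot be told apart. With the clock score as a covariate the Nppb difference with Oxf over both surgeries was -0.74 (p = 0.0866, edgeR adjusted p = 0.713), and in CKD mice it was -0.69 (p = 0.227). The CKD-vehicle to sham-vehicle difference was then 0.29 (p = 0.50). With this covariate 0% of all genes passed in each of these comparisons. Within CKD-vehicle, Nppb was lower where the score was higher (r = -0.96, exact permutation p = 0.00833, adjusted over 21 relations 0.175; rho = -0.83, exact p = 0.0583). In the 10 sham-vehicle mice r was -0.14 (permutation p = 0.702), and in the 7 CKD-Oxf mice -0.47 (exact p = 0.235). Leaving out the 2 mice farthest from the median score, r was -0.9996 in 4 CKD-vehicle, 0.18 in 8 sham-vehicle and -0.08 in 5 CKD-Oxf mice. Mouse numbers follow the groups in blocks, 901 to 910, 913 to 920, 921 to 929 and 931 to 940, so anything that changed along the numbers cannot be told apart from the group. Within CKD-vehicle Nppb had r = -0.84 with mouse number (exact permutation p = 0.050, adjusted over 21 relations 0.681; rho = -0.77), and no member's relation with mouse number had an adjusted p under 0.05.

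The share of 7SL RNA also differed between the groups. Its median was 10.1% with vehicle and 2.70% with Oxf in sham mice, and 14.04% with vehicle and 7.73% with Oxf in CKD mice. Within sham-vehicle its log2 share had r = 0.78 with Nppb (permutation p = 0.00654, adjusted over 21 relations 0.0687; rho = 0.67, p = 0.0384). Without the 2 mice farthest from the median share r was 0.43 (exact permutation p = 0.277). Leaving out the extremes also narrows the range of the share, so whether the relation rests on those mice cannot be told. The 6 CKD-vehicle hearts had 0.78 (exact permutation p = 0.0347, adjusted 0.243; rho = 0.77), with 0.47 in the 4 mice left, and the 7 CKD-Oxf hearts 0.22 (exact p = 0.664), with -0.01 in the 5 left. With this share as a covariate Nppb differed by -1.10 with Oxf over both surgeries (edgeR adjusted p = 0.0341, with 0.544% of all genes past the threshold) and by -1.43 in CKD mice (edgeR adjusted p = 0.0887). With the atrial score as a covariate the difference over both surgeries was -1.67 (edgeR adjusted p = 0.012, with 0.589% of all genes past it).

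**Figure D2:**
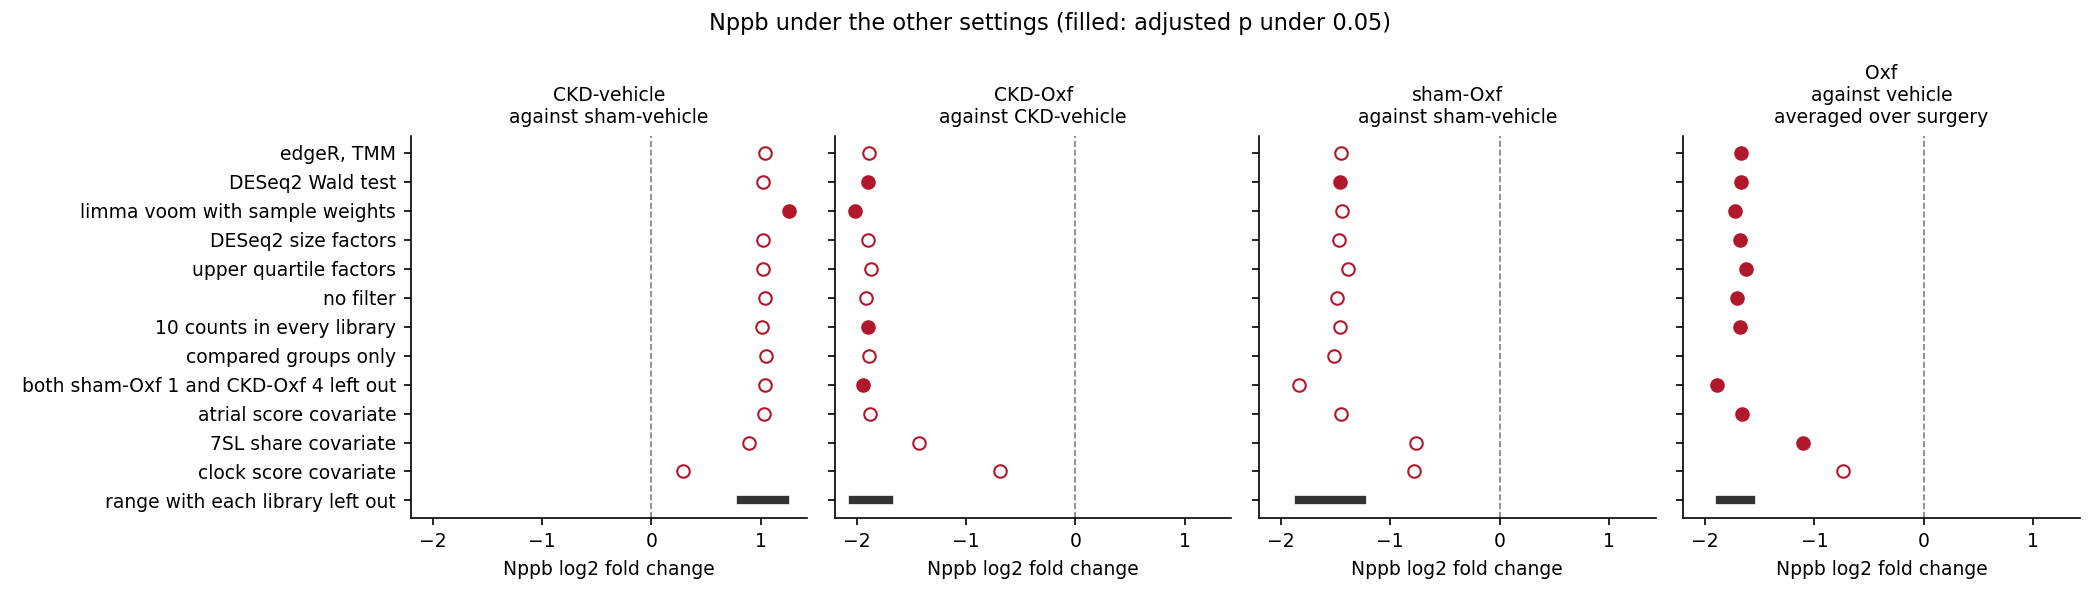
Nppb log2 fold change (horizontal axis) in 4 comparisons under each setting on the vertical axis; filled points passed an adjusted p of 0.05 and the bar is the range with each library left out in turn. The difference with Oxf over both surgeries stayed below 0 in every setting drawn and was smallest, -0.74, with the clock score as a covariate.

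Nppa, the ANP gene, was the most abundant member and the most variable of the 7 tested. Sham-vehicle hearts ran from 97.9 to 1255 CPM with a median of 542, and CKD-vehicle hearts from 413 to 1186 CPM with a median of 767. The sham-Oxf hearts were at 348, 248, 933, 30.4 and 429 CPM, and the CKD-Oxf hearts ran from 85.6 to 781 CPM with a median of 540. All 4 groups overlapped, and the SD within groups was 1.16 on the log2 scale, against a median of 0.34 over the 13906 genes that averaged 1 log2 CPM or more. The log2 fold change was 0.45 ± 0.47 for CKD-vehicle against sham-vehicle, -0.52 ± 0.51 for Oxf in CKD mice and -0.49 ± 0.52 for Oxf in sham mice. Over both surgeries Oxf gave -0.50 ± 0.36 (p = 0.177, edgeR adjusted p = 0.427), and its interval, -1.25 to 0.24, includes changes in both directions. Single sham-Oxf hearts moved these values: without replicate 3, the highest of its group, Oxf gave -1.10 in sham mice (edgeR adjusted p = 0.341) and -0.81 over both surgeries (edgeR adjusted p = 0.177), and without replicate 4, the lowest, -0.19 and -0.35.

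The 3 hearts with the lowest Nppa, sham-Oxf replicate 4 at 30.4, CKD-Oxf replicate 5 at 85.6 and sham-vehicle replicate 3 at 97.9 CPM, also had the lowest atrial scores of all 28, at -2.89, -3.47 and -1.60. The atrial score is the mean log2 level of 9 atrial genes, Nppa not among them, relative to sham-vehicle. Within sham-vehicle Nppa followed it with r = 0.85 (permutation p = 0.00105, adjusted over 21 relations 0.022; rho = 0.94, p = 0.00028), and with r = 0.76 in the 8 mice left without the 2 farthest from the median score. In CKD-Oxf r was 0.90 (exact p = 0.0236, adjusted 0.168) and 0.24 in 5 mice without the 2 farthest. The range of the score is narrower without them, so whether the relation rests on those mice cannot be told. In CKD-vehicle r was 0.25 (exact p = 0.601) and 0.998 in the 4 left. Summed over the 9 genes, the atrial level of vehicle mice was 194 to 2071 CPM after sham surgery and 836 to 2039 CPM in CKD. That of Oxf mice was 101 to 1560 and 73.5 to 1643 CPM, and none of the 9 was at 0 in any library. With this score as a covariate the Nppa difference with Oxf in CKD mice was 0.03 (p = 0.924). With the clock score it was 0.20 (p = 0.801), so its sign depends on the fit.

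No relation between the levels of the neighbours Nppa and Nppb was detected within groups. Their r was 0.14 in sham-vehicle (permutation p = 0.703), 0.58 in CKD-vehicle (exact p = 0.237) and -0.16 in CKD-Oxf (exact p = 0.749), with adjusted p of 0.712 or more over the 3. Without the 2 mice with Nppa farthest from the median, r was 0.26, 0.40 and 0.67. Clcn6, a chloride transporter gene 2179 bases beyond Nppa, had group medians from 18.9 CPM (sham-vehicle) to 24.1 CPM (CKD-Oxf) and passed no contrast.

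Nppc, the CNP gene (1:86666291-86670571, minus strand), was barely detected. It had 0 to 6 reads per library and none in 11 of 28, with a highest level of 0.117 CPM. A count of 0 allows a level of up to 0.0554 to 0.142 CPM, taking 3 counts as the limit and counting error only. It did not pass the filter on low counts and was not tested, so a difference between groups was not detectable at this depth.

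Corin, the cell-surface serine protease that activates ANP (5:72300025-72504473, minus strand), was higher in CKD by its group levels and did not pass over all genes. Sham-vehicle hearts ran from 139 to 247 CPM with a median of 171, and CKD-vehicle hearts from 210 to 294 CPM with a median of 234. The sham-Oxf hearts were at 171, 150, 198, 203 and 256 CPM and the CKD-Oxf hearts at 185 to 274 CPM with a median of 241. All 6 CKD-vehicle hearts were above the sham-vehicle median. The log2 fold change of CKD-vehicle against sham-vehicle was 0.38 ± 0.13 (p = 0.00675, edgeR adjusted p = 0.955), and over both gavages 0.31 ± 0.10 (p = 0.00368, edgeR adjusted p = 0.289). With Oxf over both surgeries Corin differed by 0.02 ± 0.10 (95% interval -0.19 to 0.22). Beside the atrial score Corin had values of either sign. In sham-vehicle r was 0.63 (permutation p = 0.0499, adjusted over 21 relations 0.209; rho = 0.73, adjusted 0.0853), with 0.46 without the 2 mice farthest from the median (exact p = 0.25). In CKD-Oxf r was 0.64 (exact p = 0.115, adjusted 0.404; rho = 0.93, adjusted 0.0472) and 0.44 in the 5 mice left, and in CKD-vehicle -0.32 (exact p = 0.618; rho = -0.37) and 0.79 in the 4 left. With that score as a covariate CKD-vehicle against sham-vehicle gave 0.34.

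Furin, the convertase of the Golgi that cuts the BNP precursor (7:80388585-80405436, minus strand), differed little between groups beside its spread. With vehicle they were 71.2 (sham) and 80.4 CPM (CKD), and with Oxf 76.1 and 102 CPM, within an overall range of 57.3 to 120 CPM. The 4 pairwise log2 fold changes lay between 0.19 and 0.20 with SEs of 0.13 to 0.15, and none had an unadjusted p under 0.05. Over both surgeries Oxf gave 0.19 ± 0.10 (p = 0.0685, edgeR adjusted p = 0.257).

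**Figure D3:**
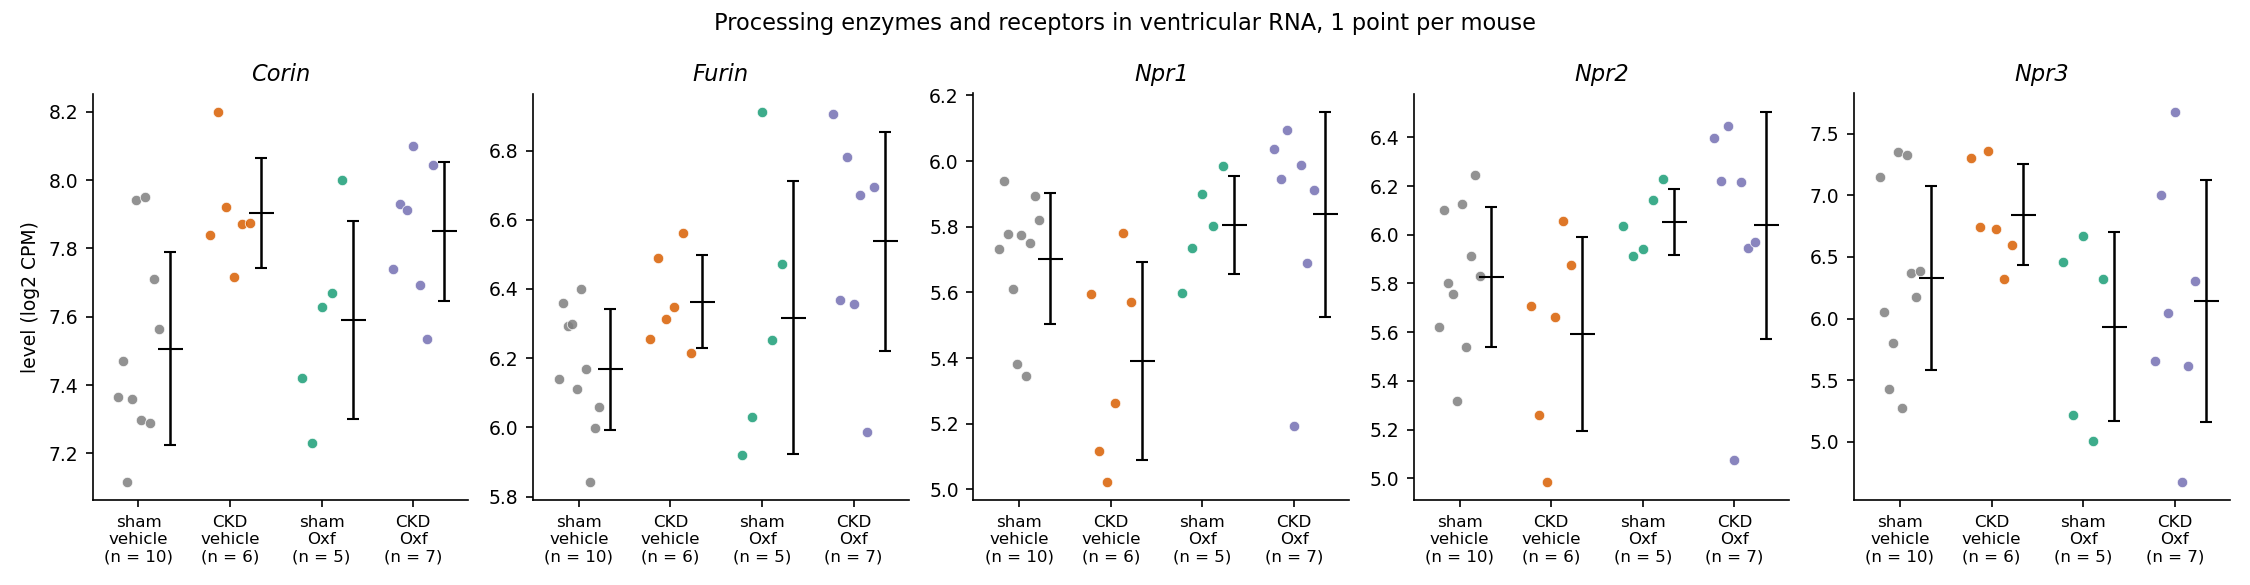
Levels of Corin, Furin, Npr1, Npr2 and Npr3 in log2 CPM (vertical axis, a separate scale per gene) in each mouse of the 4 groups, with the group mean ± SD of log2 CPM in black. Corin, Furin, Npr1 and Npr2 stay within narrow ranges, with 1 low CKD-Oxf mouse for Npr1 and Npr2, and Npr3 is widely spread within groups.

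Npr1, the receptor of ANP and BNP (3:90450591-90465866, minus strand), was lowest in CKD-vehicle and highest in CKD-Oxf by its medians and passed no contrast. Sham-vehicle hearts were at 40.6 to 61.4 CPM with a median of 54.2, and CKD-vehicle hearts at 32.5 to 54.9 CPM with a median of 42.9. The sham-Oxf hearts were at 48.4, 53.3, 59.6, 55.7 and 63.3 CPM and the CKD-Oxf hearts at 36.5 to 68.3 CPM with a median of 61.6. Of the 7 CKD-Oxf hearts 5 were above every CKD-vehicle heart. The log2 fold change was -0.30 ± 0.13 for CKD-vehicle against sham-vehicle (p = 0.0278, edgeR adjusted p = 0.955) and 0.45 ± 0.14 for Oxf in CKD mice (p = 0.00297, edgeR adjusted p = 0.214). Over both surgeries Oxf gave 0.27 ± 0.10 (p = 0.00828, edgeR adjusted p = 0.0966). Across the 28 libraries Npr1 had r = -0.70 with Nppb, and -0.55 once each group was centred on its mean. The CNP receptor gene Npr2 had nearly the same values with Nppb, -0.67 and -0.56, so the relation was not particular to Npr1.

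Npr2, the CNP receptor (4:43631935-43651244, plus strand), moved with Npr1 from mouse to mouse, with r = 0.92 over 28 libraries and 0.91 after centring on groups. Genes outside the members followed each receptor gene more closely, such as Myo7a for Npr1 (r = 0.94) and Tubgcp6 for Npr2 (r = 0.97). Sham-vehicle hearts were at 39.9 to 75.8 CPM with a median of 56.3, and CKD-vehicle hearts at 31.6 to 66.4 CPM with a median of 51.4. The sham-Oxf hearts were at 65.5, 60.3, 61.4, 70.6 and 75.0 CPM, all above the sham-vehicle median, and the CKD-Oxf hearts at 33.7 to 87.1 CPM with a median of 74.4. The log2 fold change with Oxf was 0.46 ± 0.18 in CKD mice (p = 0.0166, edgeR adjusted p = 0.299) and 0.33 ± 0.13 over both surgeries (p = 0.0128, edgeR adjusted p = 0.117). An antisense gene, Gm12473, shares 266 exonic bases with Npr2 and had up to 8.47% of its counts; whether strand was used in counting is not given in the sources used here.

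In the edgeR fit the calls of Npr1 and Npr2 for Oxf in CKD mice depended on CKD-Oxf replicate 4. This library held 20.6% 7SL RNA and had 27128 genes with a count, the fewest of its group. The part of these measures was not tested. It was the lowest of its group for both receptor genes, at 36.5 and 33.7 CPM. Without this library the differences with Oxf in CKD mice were 0.53 for Npr1 (edgeR adjusted p = 0.0358) and 0.57 for Npr2 (edgeR adjusted p = 0.0441), and both passed. Nppb passed as well, at -1.95 (edgeR adjusted p = 0.0358). Leaving it out raised the number of all genes past the threshold in that contrast from 8 to 927, or 3.83%. In CKD-vehicle, Npr1 was lower where the log2 share of 7SL RNA was higher (r = -0.84, exact permutation p = 0.00139, adjusted over 21 relations 0.0292). Spearman's rho, which uses the ranks alone, had the lowest value it can take (exact permutation p = 0.00278, adjusted over 21 relations 0.0583). In the 4 mice left without the 2 farthest r was -0.998. In sham-vehicle r was -0.50 (permutation p = 0.135) and in CKD-Oxf -0.28 (exact p = 0.567). With the share as a covariate the differences with Oxf in CKD mice were 0.38 for Npr1 (p = 0.00515) and 0.39 for Npr2 (p = 0.0306); with the clock score they were 0.33 (p = 0.102) and 0.26 (p = 0.303).

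Npr3, the clearance receptor (15:11839896-11907287, minus strand), spread widely and overlapped between all groups. Sham-vehicle hearts ran from 38.7 to 164 CPM with a median of 77.4, and CKD-vehicle hearts from 79.9 to 164 CPM with a median of 107. The sham-Oxf hearts were at 88.0, 37.1, 102, 32.0 and 80.0 CPM, and the CKD-Oxf hearts ran from 25.5 to 205 CPM with a median of 65.8. Of the 7 CKD-Oxf hearts 5 were below all CKD-vehicle hearts and 1, replicate 4, was above them. The log2 fold change was 0.39 ± 0.36 for CKD-vehicle against sham-vehicle and -0.46 ± 0.39 for Oxf in CKD mice, and over both surgeries Oxf gave -0.44 ± 0.28 (p = 0.119, edgeR adjusted p = 0.345). Without CKD-Oxf replicate 4 the difference with Oxf in CKD mice was -0.83 (p = 0.0324, edgeR adjusted p = 0.170). Npr3 is known in endocardium and atria. With the endocardial score, the mean of 5 genes that include Plvap and Vwf, r was 0.75 in sham-vehicle (permutation p = 0.014), 0.74 in CKD-vehicle (exact p = 0.0944) and 0.88 in CKD-Oxf (exact p = 0.0117), with adjusted p of 0.0735 or more over 21 relations. Without the 2 mice farthest from the median score these were 0.56 in sham-vehicle (exact permutation p = 0.147) and 0.54 in CKD-Oxf (exact p = 0.308). In CKD-vehicle r was 0.80 in the 4 mice left. The range of the score is narrower without the extremes, so whether the relations rest on those mice cannot be told. With the atrial score r was 0.66 in sham-vehicle (permutation p = 0.0393, adjusted 0.206; rho = 0.73) and 0.81 in CKD-Oxf (exact p = 0.0240, adjusted 0.168; rho = 0.93, adjusted 0.0472). In CKD-vehicle it was 0.39 (exact p = 0.406; rho = 0.0857), and without the 2 farthest mice the 3 values were 0.50, 0.51 and 0.0994 in this order. Summed over the 5 genes, the level of vehicle mice was 125 to 324 CPM after sham surgery and 153 to 338 CPM in CKD, and that of Oxf mice 113 to 257 and 102 to 367 CPM. Most of this sum was Vwf, at 89.2 to 302 CPM over all libraries. The medians were 19.5 CPM for Plvap, 7.68 for Tmem108, 6.81 for Cytl1 and 0.722 for Hapln1. Cytl1 was at 0 in 1 library and Hapln1 in 2. With the atrial score as a covariate the difference with Oxf in CKD mice was -0.17.

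**Figure D4:**
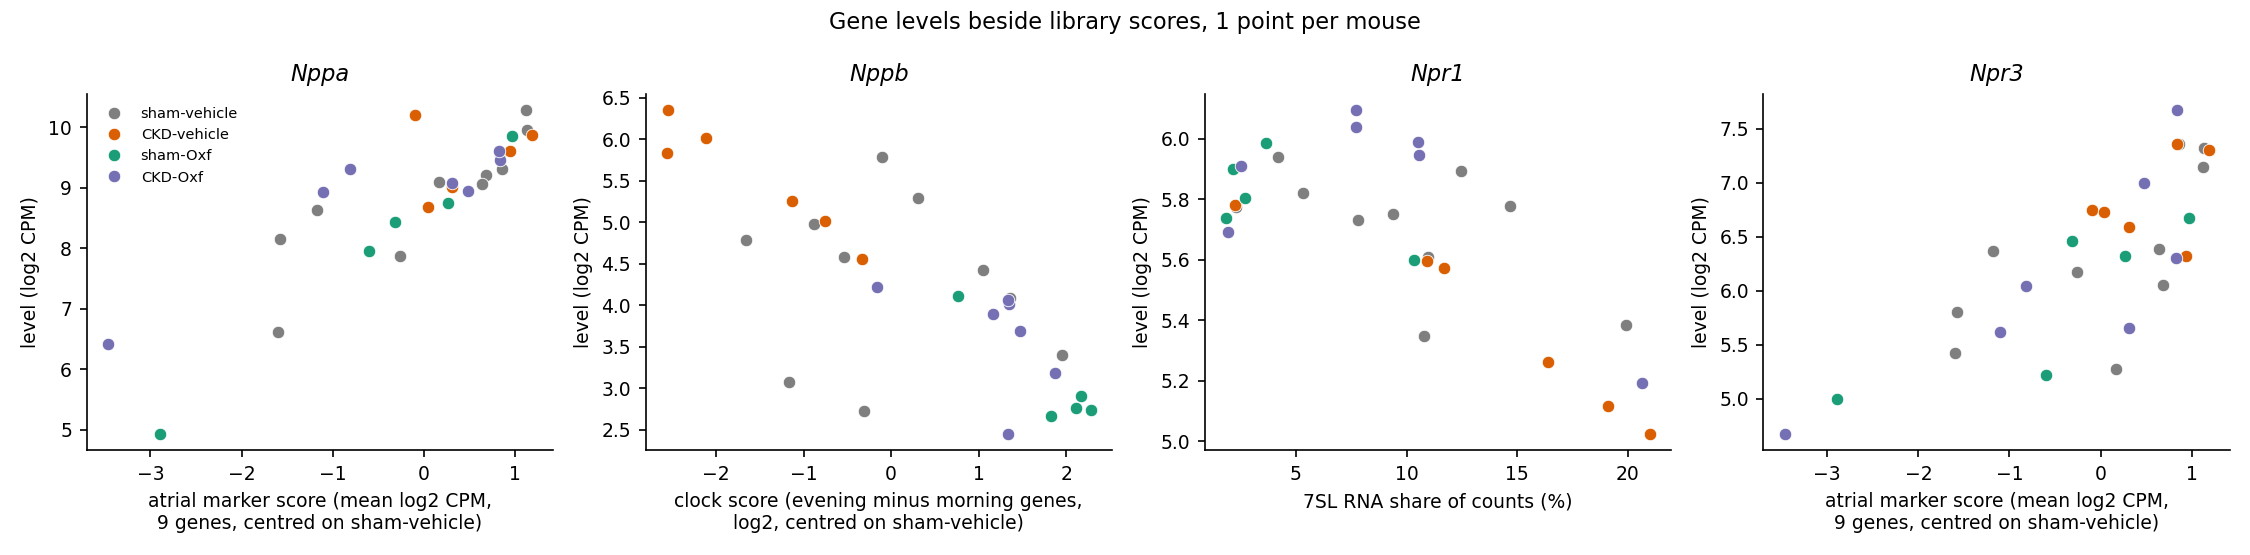
Levels in log2 CPM (vertical axes) of Nppa against the atrial score, Nppb against the clock score, Npr1 against the 7SL share in percent and Npr3 against the atrial score, with 1 point per mouse coloured by group. The hearts with Nppa at 30.4 and 85.6 CPM are those with the lowest atrial scores, and CKD-vehicle and CKD-Oxf hearts do not overlap in clock score.

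Set against all genes, the members' counts were read as follows. At an unadjusted p under 0.05 there were 3 of 7 for CKD-vehicle against sham-vehicle (all genes 4.46%), 3 of 7 for Oxf in CKD mice (13.1%), 1 of 7 for Oxf in sham mice (12.6%) and 3 of 7 for Oxf over both surgeries (23.0%). None of 7 reached it for CKD-Oxf against sham-Oxf (8.23%) or the interaction (3.55%), and 2 of 7 did for CKD against sham over both gavages (10.6%). The median log2 fold change of the 7 was 0.38, -0.05, 0.08 and 0.02 in the first 4 of these, beside -0.03, 0.03, -0.04 and 0.00 over all genes. The comparisons share control groups.

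**Figure D5:**
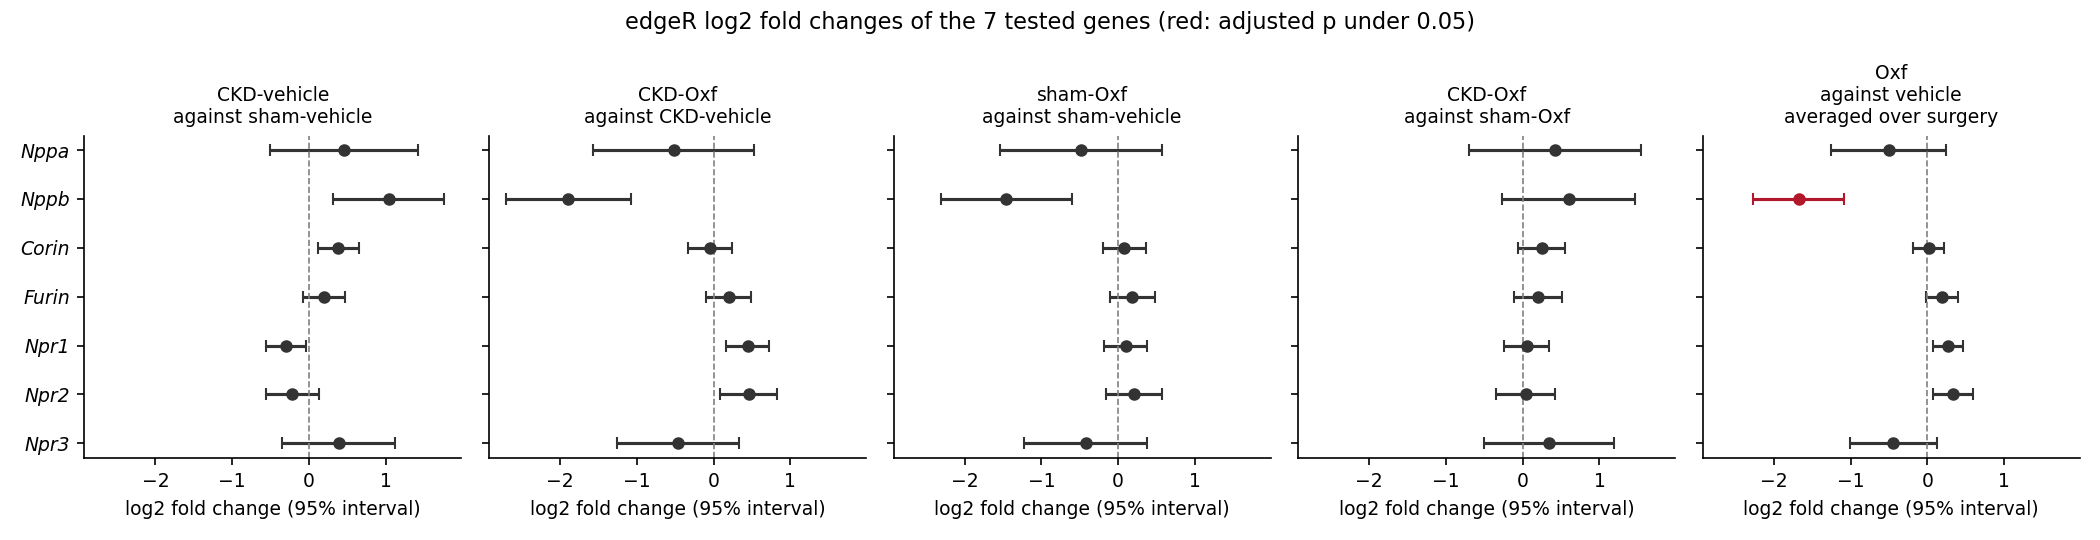
edgeR log2 fold changes with 95% intervals (horizontal axis) of the 7 tested genes in 5 comparisons; red marks an adjusted p under 0.05. Nppb over both surgeries, at -1.67, is the only red point, and Nppb, Npr1 and Npr2 have intervals that exclude 0 for Oxf in CKD mice.

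Per length of exon, in sham-vehicle hearts, Nppa stood at 645 ± 404 CPM per kb (SD, n = 10), far above the other members. Corin followed at 34.3 ± 6.98 and Nppb at 30.9 ± 19.4, then Npr2 at 12.4 ± 2.41, Npr1 at 10.97 ± 1.44, Npr3 at 9.67 ± 5.03 and Furin at 7.88 ± 0.93. The mean ± SD ranges of Corin and Nppb overlapped, as did those of Npr2, Npr1 and Npr3, and those of Npr3 and Furin. All genes were measured in the same hearts, and differences between genes within hearts were not tested. In CKD-Oxf hearts Nppb was at 17.1 ± 5.96 CPM per kb (SD, n = 7), below Corin at 43.1 ± 5.94.

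Beyond the members, 53 of 55 listed genes of the wider pathway and the locus were found and 51 were tested: granule proteins, peptide-degrading enzymes, soluble guanylyl cyclase, cGMP kinases, phosphodiesterases, kinase targets, transcription factors of these promoters and neighbours. In Oxf against vehicle over both surgeries 1 rose and 1 fell, or 3.92% beside 2.81% of all genes. At an unadjusted p under 0.05 there were 6 higher and 9 lower, or 29.4% beside 23.0% of all genes, with a median log2 fold change of -0.02. No listed gene passed in any of the other 6 contrasts. Gucy1a3, the alpha subunit of the nitric oxide-sensitive guanylyl cyclase, which makes cGMP as Npr1 does, fell, with a log2 fold change of -0.50 ± 0.11 (edgeR adjusted p = 0.0207). Its median was 52.6 CPM with vehicle and 40.6 CPM with Oxf in sham mice, and 68.1 and 43.4 CPM in CKD mice. Its beta partner Gucy1b3 was at -0.26 ± 0.09 and did not pass (edgeR adjusted p = 0.103). Klf13, a zinc finger factor that binds GATA4, rose by 0.36 ± 0.09 (edgeR adjusted p = 0.0305), from medians of 64.6 and 59.7 CPM in sham-vehicle and CKD-vehicle to 79.1 and 77.6 CPM in sham-Oxf and CKD-Oxf. With the clock score as a covariate neither passed, at -0.11 for Gucy1a3 (edgeR adjusted p = 0.881) and 0.24 for Klf13 (edgeR adjusted p = 0.725), where 0% of all genes passed. With the 7SL share they were at -0.41 (edgeR adjusted p = 0.102) and 0.26 (edgeR adjusted p = 0.116), where 0.544% of all genes passed.

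The listed gene with the smallest p in each other contrast did not pass. For Oxf in CKD mice it was Pde3a, the cGMP-inhibited phosphodiesterase, at -0.52 ± 0.14 (edgeR adjusted p = 0.196), and for Oxf in sham mice Klf13 at 0.37 ± 0.12 (edgeR adjusted p = 0.221). For CKD-vehicle against sham-vehicle it was Pde10a, a phosphodiesterase of both cyclic nucleotides, at -0.54 ± 0.17 (edgeR adjusted p = 0.955). Trpc6, a cation channel held back by the cGMP kinase, came first for CKD-Oxf against sham-Oxf at 2.02 ± 0.54 (edgeR adjusted p = 0.195) and for CKD against sham over both gavages at 1.18 ± 0.34 (edgeR adjusted p = 0.242). Its levels were low, at 0 to 1.35 CPM in sham-Oxf and 1.41 to 9.21 CPM in CKD-Oxf with a median of 2.51. For the interaction it was Chgb, a granule protein, at 2.48 ± 0.93 (edgeR adjusted p = 1). Chgb was barely detected, with group medians from 0.0423 CPM (CKD-vehicle) to 0.161 CPM (sham-vehicle), so its fold change rests on few reads.

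The genes whose log2 CPM followed each member most closely over the 28 libraries were named by Pearson's r, as a description; all points share the libraries and their depth. For Nppa they were Pam (r = 0.97), the peptide-amidating enzyme abundant in atrial granules, Mybphl (0.95) and Myl4 (0.94), the atrial essential light chain. For Nppb they were Ppp1r3c (0.91), a glycogen-targeting subunit of protein phosphatase 1, Casq2 (0.88), the calcium store protein of the sarcoplasmic reticulum, and Ndufb4 (0.88), of respiratory complex I. After centring on group means these 3 were at 0.84, 0.83 and 0.83. Corin was most like Dsg2 (0.87), the desmosomal cadherin, Kcnj12 (0.80) and Arfgef1 (0.79), and Furin was most like St6galnac6 (0.88), RP24-78F21.4 (0.87) and Rnf10 (0.87). Npr1 was most like Myo7a (0.94), Taok2 (0.93) and Adarb1 (0.93), and Npr2 most like Tubgcp6, Fhod1 and Stard8 (0.97, 0.97 and 0.96). Npr3 was most like Slc39a8 (0.92), Arrdc3 (0.92) and Kcnj3 (0.90), a potassium channel subunit of the atria.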

How the data were processed

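Ventricular RNA of 28 mice was analysed from 1 deposited table of read counts per gene and library, not normalized. Per the submitters' processing notes, FastQC 0.11.7, MultiQC 1.9, STAR 2.6.1d, featureCounts 1.6.3 and the mm10 build were used; annotation, settings and strand are not given in the sources used here. Groups were read from the sample titles. Genes were filtered with filterByExpr (minimum count 10), which left 24273, scaled by TMM and fitted over all 28 libraries as 4 group means with edgeR 4.0.16 (R 4.3.3), quasi-likelihood F test, Benjamini-Hochberg over all genes. The SE is the log2 fold change divided by the root of F. Log2 CPM used a prior count of 2. The fit was tested on simulated data. Correlations were computed within groups of at least 6 mice with two-sided permutation p (exact under 10 mice, 100000 draws otherwise, SciPy 1.17.1). Those with atrial, endocardial and 7SL measures were chosen after seeing the data. For each score, 7SL share or mouse number, p was adjusted over its own 21 relations and not over all of these measures together. Positions are from GENCODE M21 (GRCm38), in which 45465 of 45513 gene identifiers were found. No proteins were used here.

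The members, gene lists and tests were chosen with earlier results of these data known. Named were all 8 members, listed pathway genes that passed in a contrast (otherwise the 1 with the smallest p), and the 3 genes most like each tested member by r among those that averaged 1 log2 CPM or more; Gucy1b3 and Clcn6 were added after their values were seen. Alternatives were DESeq2 1.42.0, limma 3.58.1 voom with sample weights, other scaling factors and filters, the compared groups alone, covariates, and each library left out.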

Additional observations from a re-analysis of the deposited data

Results flagged for a closer look

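Each of the 7 tested genes was examined in each of the 4 groups, and of these 28 sets of values 3 had a heart whose gap to the nearest other exceeded the 95% limit for its group's range of log2 CPM; chance gives about 1.4. Nppa in CKD-Oxf replicate 5, at 85.6 CPM, was the lowest of its group, the next being 487 CPM, a gap of 0.787 of the range. This heart also had the lowest atrial score of all 28, -3.47. Nppb in sham-Oxf replicate 1, at 17.2 CPM, was the highest of its group, the next being 7.43 CPM, a gap of 0.834 of the range. This is the library with 15879 genes holding a count, and its clock score, 0.77, was the lowest of the sham-Oxf hearts. Npr2 in CKD-Oxf replicate 4, at 33.7 CPM, was the lowest of its group, the next being 61.6 CPM, a gap of 0.636 of the range. This library had the highest 7SL share of its group, 20.6%, and the fewest genes with a count, 27128. The part of these measures in the 3 values was not tested.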

How the results depend on the processing

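Outside single left-out libraries, 438 of 468 member fold changes kept their direction and side of the threshold, 14 changed sign, 15 passed where edgeR had not and 1 no longer passed. The call of Nppb with Oxf over both surgeries held in 37 of 38 alternatives and ended with the clock score, where 0 members and 0% of all genes passed. In that contrast 4 members passed with limma voom (Furin, Nppb, Npr1, Npr2), where 22.0% of all genes did, 3 without both sham-Oxf replicate 1 and CKD-Oxf replicate 4 (Nppb, Npr1, Npr2; an alternative chosen after seeing the data), where 19.1% did, and 1 to 3 with each library left out, where 0.449% to 13.9% did, Npr1 also passing without CKD-vehicle replicate 5. For Oxf in CKD mice 0 members passed with edgeR, 1 with DESeq2 or a filter of 10 counts in every library (Nppb; 0.783% and 0.0996% of all genes), 3 with voom or without both libraries (Nppb, Npr1, Npr2; 14.99% and 8.86% of all genes), and 0 to 3 with each library left out (0% to 3.83%), Nppb passing without CKD-vehicle replicate 5. For Oxf in sham mice 1 passed with DESeq2 (Nppb; 0.540% of all genes), and for CKD-vehicle against sham-vehicle 1 with voom (Nppb, 1.26; 0.383%). Sign changes were all of values that had not passed. With the clock score they were Nppa for Oxf in CKD mice (0.20), in sham mice (0.0164) and over both (0.107), Corin for Oxf in sham mice (-0.0144) and over both (-0.106), and the Nppb interaction (0.0938). With the atrial score they were Nppa (0.0319) and Corin (0.0263) for Oxf in CKD mice. With the 7SL share they were Npr1 (-0.0558) and Npr3 (0.0543) for Oxf in sham mice and Npr3 for CKD-Oxf against sham-Oxf (-0.0727). Corin also changed sign with voom for Oxf in CKD mice (0.00964) and with no filter for Oxf over both (-0.00751), and Npr2 with upper quartile factors for CKD-Oxf against sham-Oxf (-0.0120). With each library left out, Corin ran from -0.0912 to 0.0149 for Oxf in CKD mice, from -0.0345 to 0.163 in sham mice and from -0.0422 to 0.0567 over both, Furin from -0.000256 to 0.277 in sham mice, and Npr2 from -0.0301 to 0.134 and Npr3 from -0.0254 to 0.539 for CKD-Oxf against sham-Oxf. Of the pathway genes, treated in the same way after seeing the data, Gucy1a3 passed in 36 of 38 alternatives and Klf13 in 27 of 38, the latter not with no filter, any of the 3 covariates, or without CKD-Oxf replicate 3 or 5, CKD-vehicle replicate 1, 2, 3 or 4, or sham-Oxf replicate 5 (edgeR adjusted p of at most 0.0791 without 1 of these libraries, 0.0646 with no filter and 0.0661 with the atrial score). Gucy1b3 passed in 5 of 38 and Pde3a for Oxf in CKD mice in 4 of 24, both also without CKD-Oxf replicate 4. Pde10a for CKD-vehicle against sham-vehicle passed in 1 of 27, with voom (0.383% of all genes). Trpc6 for CKD-Oxf against sham-Oxf passed in 1 of 22, with DESeq2 (0.412% of all genes), and ran from 1.18 to 2.32. Klf13 for Oxf in sham mice, Trpc6 over both gavages and the Chgb interaction passed in 0. Without the 2 mice farthest from the median, r of Nppb with the clock score in sham-vehicle became 0.18 and r of Nppa with Nppb in CKD-Oxf 0.67. The cause was not tested. No paired analysis was possible because replicate numbers were given in accession order and each mouse belongs to 1 group. Depth limits Nppc.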
